A study of Mus musculus with 20 samples.

Results

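Cytosolic ribosomal protein genes encode the protein subunits of the ribosomes that translate nuclear messenger RNA in the cytoplasm. A protein-coding gene was counted among them when its mouse symbol was Rpl or Rps followed by a number, with or without a closing a or x, or was Rplp0, Rplp1, Rplp2 or Rpsa. The rule uses names alone and found 76 of the 54838 genes in the count files. Of these, 43 encode proteins of the large subunit, 30 proteins of the small subunit, and 3 (Rplp0, Rplp1 and Rplp2) proteins of the stalk, the flexible arm of the large subunit that recruits translation factors. The 76 genes lie on 19 chromosomes, and 4 of them (Rpl10, Rpl36a, Rpl39 and Rps4x) are on the X chromosome.

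The libraries came from microglia, the resident macrophages of the brain, sorted by flow cytometry as CD11b-high, CD45-low cells (1000 per mouse) from frontal cortex at postnatal day 40. Their RNA was copied into cDNA with template switching and amplified, and reads were counted per gene. The 20 libraries carry 5 genotype labels: WT (wild type, n = 4), C4-/- (loss of complement C4, n = 5), then hC4A/- with 5 libraries, hC4B/- with 4 and hC4A/A with 2, whose labels name human C4 alleles. C4 is a protein of the classical complement cascade. The labels used here do not tell how the alleles were made, which promoter drives the human genes or whether animals shared litters. Each library was treated as 1 mouse, so p-values measure the spread between these libraries, which may in part be technical.

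A ribosome is built from ribosomal RNA and a fixed set of proteins, so cells coordinate the output of many genes on many chromosomes. In mammals these messenger RNAs start with a run of pyrimidines, the 5′ terminal oligopyrimidine tract, through which LARP1 and the kinase mTOR govern their translation and stability together. Ribosomal protein genes have also left a large number of processed pseudogenes, intron-less copies of their messenger RNA, in the mouse genome.

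The start sites of some members are shown here, and the following genes are printed because the results below turn on them or because they stand for a stalk, a small subunit and a large subunit protein. The RefSeq promoter table (GRCm38.p6) held 56 of the 76 genes. Each line gives 60 bases on the gene's own strand, 30 before the annotated start and 30 from it on, with the longest run of pyrimidines in capitals: Rplp2 (chr7:141447621-141447680, plus strand), Rpsa (chr9:120127736-120127795, plus strand), Rps12 (chr10:23787180-23787239, minus strand), Rpl6 (chr5:121204471-121204530, plus strand) and the start of Rpl35a with the longest run (chr16:33056452-33056511, plus strand).
Rplp2: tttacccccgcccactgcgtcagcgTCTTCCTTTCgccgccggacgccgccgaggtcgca
Rpsa: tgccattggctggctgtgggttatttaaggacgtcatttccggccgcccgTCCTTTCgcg
Rps12: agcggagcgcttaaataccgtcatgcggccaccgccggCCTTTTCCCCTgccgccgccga
Rpl6: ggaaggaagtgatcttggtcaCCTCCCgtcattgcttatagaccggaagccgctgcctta
Rpl35a: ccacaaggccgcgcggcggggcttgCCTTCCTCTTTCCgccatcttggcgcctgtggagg

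The capitals mark a run of 13 pyrimidines in Rpl35a, 11 in Rps12, 10 in Rplp2, 7 in Rpsa and 6 in Rpl6. The run spans the annotated start in Rplp2 and Rpl35a, lies before it in Rpl6 and after it in Rps12 and Rpsa. Across the 56 matched genes, 57.1% had a run of 8 or more pyrimidines between 20 bases before and 30 bases after the annotated start, against 21.4% of the 16515 protein-coding genes in the table. The median longest run was 9 in the ribosomal protein genes and 5 in all protein-coding genes. In the same stretch CTTTC, searched on both strands, was found in 42.9% of the ribosomal protein genes and 12.9% of all genes, and TTTCC, whose letters overlap it, in 35.7% and 15.6%. Over the whole 300 bases, CCGGAAG, the letters that ETS-family factors such as GABPA are known to bind, was found on either strand in 41.1% against 13.4%. AAGATGGC, the core letters of the YY1 motif, was found in 8.93% against 3.64%, and TATAA in 28.6% against 24.4%. These are matches of letters at annotated starts, which need not be the starts used in microglia.

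Totals per library and points that touch every gene are given first. Gene counts ran from 855099 to 2735181 per library, and every library held counts from all 14 microglia marker genes examined. C4b, the mouse C4 gene, had 0 to 2 counts in the 4 libraries labelled WT and 7 to 157 in those labelled C4-/-, which goes against those labels. It had 5 to 45 counts in hC4A/-, 4 to 428 in hC4B/- and 21 to 271 in hC4A/A, so all 5 genotypes are used here as names of labels. The WT libraries also form a series of deposited names of their own, so genotype and series cannot be told apart in a contrast with WT. In all, 4 libraries detected more than 27000 genes: hC4A/A replicate 2, C4-/- replicate 3 and replicates 2 and 3 of hC4B/-. In them 47.6% to 63.6% of 1967 olfactory and vomeronasal receptor genes, which microglia are not known to use, had a count. In the other 16 libraries the share was 4.98% to 32.9%. They are called the broad libraries below, and results are given with and without them.

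The 76 genes together took 0.0591% to 1.07% of the gene counts of a library, with a median of 0.485%. Their summed level, in library-scaled counts (CPM) after normalization by the trimmed mean of M-values (TMM), was 4523, 2771, 6057 and 3719.7 in the WT libraries and 8267, 3772, 1438, 4227 and 10092 in the C4-/- libraries. It was 4043, 4389.7, 3186, 4827 and 9857 in the hC4A/- libraries. It was 5497, 1032, 5768 and 3999 in the hC4B/- libraries, and 4434 and 648 in the 2 hC4A/A libraries. Of the 4 broad libraries, 3 lay below every other library, the remaining one (hC4B/- replicate 3) lay among the highest, and all 5 genotypes overlapped. Outside the broad libraries the spread within a label was already wide: C4-/- ran from 3772 to 10092 and hC4A/- from 3186 to 9857.

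**Figure D1:**
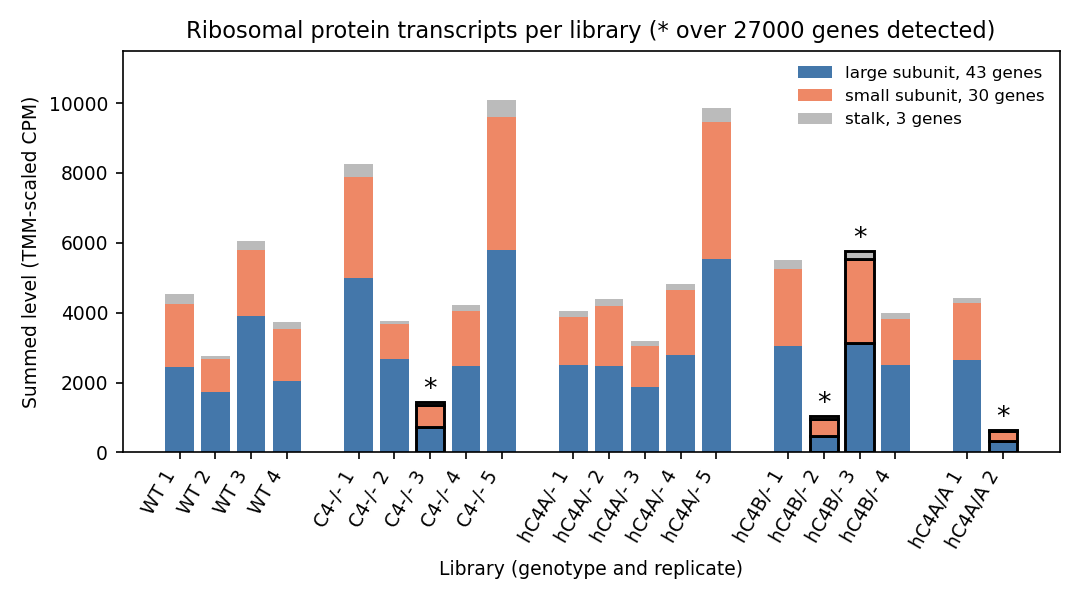
Summed level of the 76 ribosomal protein genes in each library (bars, TMM-scaled CPM), split into large subunit, small subunit and stalk genes, with libraries grouped by genotype label and the 4 broad libraries outlined and starred. C4-/- replicate 3, hC4B/- replicate 2 and hC4A/A replicate 2 sit at 1438, 1032 and 648, below the other 17 libraries, whose lowest is WT replicate 2 at 2771.

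As group values, the share of gene counts was 0.451% ± 0.153 (SD, n = 4) in WT, 0.576% ± 0.338 (SD, n = 5) in C4-/-, 0.558% ± 0.305 (SD, n = 5) in hC4A/-, 0.369% ± 0.233 (SD, n = 4) in hC4B/- and 0.299% ± 0.339 (SD, n = 2) in hC4A/A. Without the broad libraries C4-/- stood at 0.673% ± 0.300 (SD, n = 4), hC4B/- at 0.469% ± 0.191 (SD, n = 2) and hC4A/A at 0.538% (n = 1). These shares depend on the repeat-rich gene Gm10800, which took 9.61% to 65.9% of the gene counts of a library. With it left out of the total, the share was 0.572% ± 0.137 in WT (SD, n = 4), 0.735% ± 0.393 in C4-/- (SD, n = 5), 0.723% ± 0.272 in hC4A/- (SD, n = 5), 0.616% ± 0.315 in hC4B/- (SD, n = 4) and 0.368% ± 0.326 in hC4A/A (SD, n = 2). hC4B/- was then above WT in the mean, where it was below it before. On the share of all gene counts, the libraries of every label overlapped with those of the others with and without the broad libraries. With Gm10800 left out they also overlapped over all 20 libraries. Without the broad libraries, the single hC4A/A library was then at 0.599%, just below both hC4B/- libraries (0.772% and 0.609%). In bulk samples such as these, fewer cells of a type and less RNA per cell cannot be told apart.

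The large and small subunit genes kept a similar balance in most libraries. Counts on large subunit genes per count on small subunit genes ran from 0.992 in hC4B/- replicate 2 to 2.67 in C4-/- replicate 2. The 3 broad libraries with low totals had the 3 lowest ratios (1.13 in C4-/- replicate 3, 0.992, and 1.12 in hC4A/A replicate 2), followed by hC4B/- replicate 3 at 1.29. In C4-/- replicate 2 a single gene, Rpl6, made up 11.8% of the members' counts, and in WT replicate 3 it made up 13.5%.

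Levels between genes are compared here per kilobase of the principal transcript, so their order depends on the transcript chosen. The one used is 5130 bases long for Rps15a and 3706 for Rps20, which stood at 7.14 and 7.15 CPM per kilobase. Rpl10, which sits close to the peptidyl transferase centre of the large subunit, had the highest mean at 288 CPM per kilobase, followed by Rps25 at 268, Rpl6 at 203, Rpl7a at 188 and Rpl4 at 178. Rps12 stood at 128 and Rpl24 at 3.47. Rpl23a (3.07), Rpl13a (1.498) and Rps10 (1.41) were the lowest and are the 3 genes that did not pass the filter on low counts, with 56, 57 and 35 counts over all 20 libraries. Over the 16 libraries that are not broad the order began with Rps25 at 317 CPM per kilobase, then Rpl10 at 312, Rpl6 at 249, Rpl7a at 224 and Rpl4 at 216, so the first pair changed places. The other 73 genes were tested, and all but Rpl24 had at least 1 count in each of the 16 libraries that are not broad.

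The order of levels depends on which reads a counter can place. Of the 50-base stretches of a member's principal transcript, a median of 56.1% also occurred in the transcript of another annotated gene, pseudogenes included, and in 46 of the 76 genes the share was over 50%. A read from such a stretch can map to several places, and reads in several places are not in the gene counts. The share was 2.96% in Rps3, 7.86% in Rpl8 and 16.5% in Rpl4, against 90.1% in Rps12, 92.1% in Rpl10, 95.1% in Rpl35 and 98.7% in Rps27. Another gene's exons overlapped the exons of 37 members: 47.0% of the exon length of Rpl24 is shared with the readthrough gene Gm28037, 62.3% of that of Rpl23a with Tlcd1 and Snord42b, and 66.2% of that of Rpl35 with Arpc5l and Wdr38 on the other strand. In Rpl24 and Rpl13a the overlap is with genes on the same strand, in Rps10 mostly so, and in Rpl23a and Rpl35 mainly with genes on the other strand, which the counts used do not tell apart. The levels of these 5 genes are therefore uncertain.

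Most members moved together from library to library. The difference of each library from the mean of the other libraries that are not broad was taken for each gene. This difference is on edgeR's log2 CPM scale, with a prior count of 2. Its median over the 73 genes was +1.33 in hC4A/- replicate 5 and +1.29 in C4-/- replicate 5, with 72 of 73 genes above 0 in each, and +0.86 in C4-/- replicate 1 with 70 above 0. It was -1.15 in WT replicate 2 with 69 of 73 below 0, and -1.06 in C4-/- replicate 2 with 61 below 0. The same median over all 12680 tested genes was +0.23, +0.37, +0.53, -0.37 and -0.30 in these 5 libraries. Libraries of the same label thus stood on both sides: C4-/- held replicates 1 and 5 high and replicate 2 low.

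The 3 low broad libraries stood lowest, while the median over all their tested genes was above 0. Summed elongation and other terminal oligopyrimidine genes, ribosome biogenesis factors, and astrocyte and oligodendrocyte markers were also lower there, as given below. The median over members was -2.33 in hC4A/A replicate 2, -1.77 in hC4B/- replicate 2 and -1.24 in C4-/- replicate 3, where all tested genes had medians of +0.55, +0.52 and +0.42. In hC4A/A replicate 2, 57 of the 73 genes were below every one of the 16 libraries that are not broad, as were 13.02% of all tested genes. The counts were 46 of 73 (12.2% of all tested genes) in hC4B/- replicate 2 and 30 of 73 (10.9%) in C4-/- replicate 3. In hC4B/- replicate 3 they were 6 of 73 (10.5%). By the same measure against the other 15 libraries, WT replicate 2 had 34 of 73 (6.6%) and C4-/- replicate 2 had 26 of 73 (7.2%). The summed microglia markers were 5013, 6256 and 8884 CPM in hC4A/A replicate 2, hC4B/- replicate 2 and C4-/- replicate 3, against 6842 to 13132 in the 16 others. The part of cell make-up, depth or amplification in these values was not tested.

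**Figure D2:**
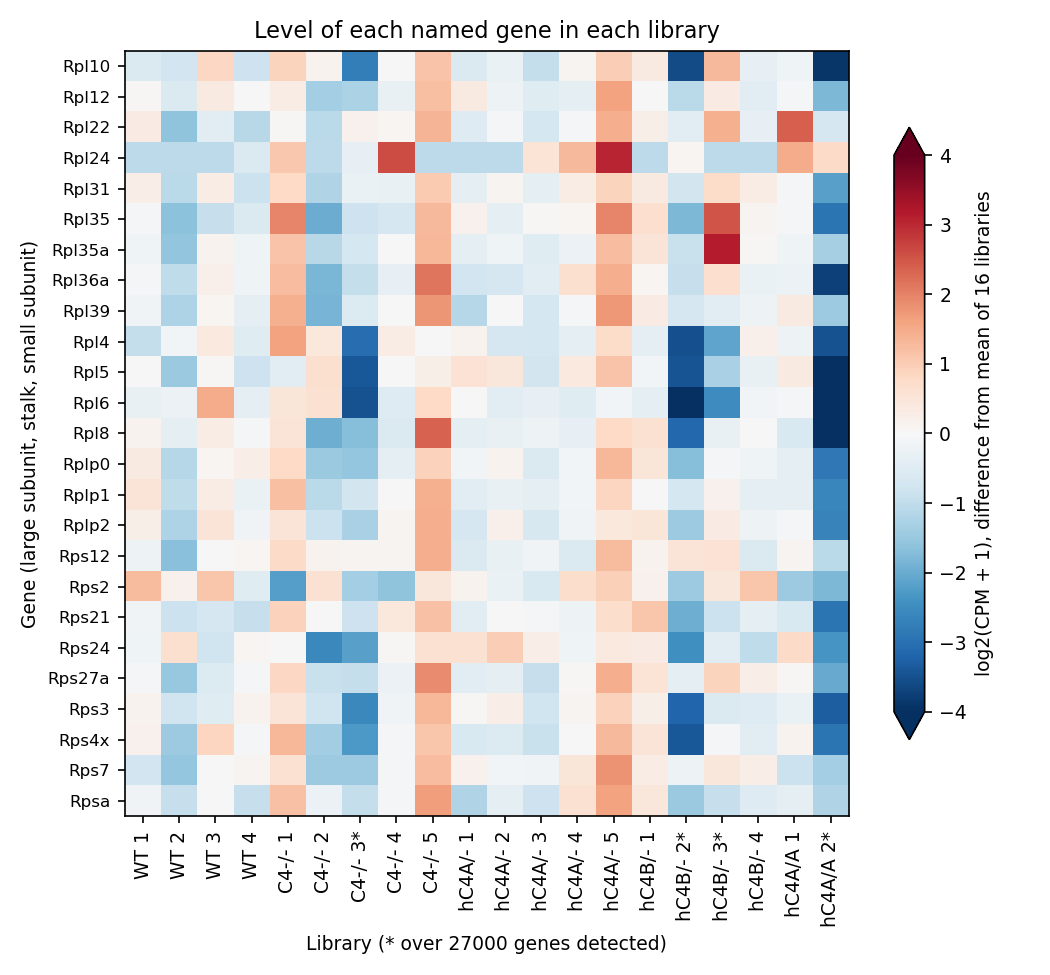
Difference of each ribosomal protein gene named by rule and tested (vertical, large subunit, stalk, small subunit) in each library (horizontal, starred when broad) from its mean over the 16 libraries that are not broad, in log2(CPM + 1), with the colour scale ending at 4 in both directions. Most squares of a column are red (C4-/- replicates 1 and 5, hC4A/- replicate 5) or blue (WT replicate 2, C4-/- replicates 2 and 3, hC4B/- replicate 2, hC4A/A replicate 2), and squares such as Rpl35a and Rpl35 in hC4B/- replicate 3 stand apart from their column.

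Over the 20 libraries the SD of log2 CPM had a median of 1.05 across members (0.73 to 1.68), against 1.24 across all tested genes and 1.18 across 1748 other genes in the middle part of the members' level range, 26.5 to 70.5 CPM. Over the 16 libraries that are not broad the medians were 0.77 for members, 1.07 for all tested genes and 1.08 for those 1748. Rps12, a small subunit protein, had the smallest SD among members (0.73), followed by Rpl31 (0.80) and Rpl12 (0.81). Rpl6 (1.68), Rpl8 (1.48) and Rpl5 (1.46), proteins of the large subunit, had the largest.

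Rps12 and Rpl6 mark the ends of that range. Rps12 (ENSMUSG00000061983) was measured at 79.9, 59.6 and 25.6 CPM in the 3 low broad libraries, in the order hC4B/- replicate 2, C4-/- replicate 3 and hC4A/A replicate 2, and at 16.9 to 154 CPM in the 16 others. Rpl6 (ENSMUSG00000029614) was measured there at 11.9, 25.3 and 10.3 CPM, against 202 to 816 CPM in the 16 others. All 3 libraries thus lay within the others' range for Rps12 and below all of them for Rpl6. As a share of the members' counts, Rps12 held 7.74%, 4.15% and 3.96% in these libraries, 1.45% in hC4B/- replicate 3 and 0.61% to 1.62% in the 16 others. Its transcript shares sequence with 21 named pseudogenes, so part of the Rps12 counts may belong to copies.

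Pseudogenes took more counts relative to the members in the same libraries. The 294 annotated pseudogenes named after a ribosomal protein had 27.1 counts per 100 member counts in hC4A/A replicate 2, 14.4 in hC4B/- replicate 2 and 4.91 in C4-/- replicate 3. In hC4B/- replicate 3 the value was 3.50, and in the 16 other libraries it ran from 1.76 to 3.95. Only the 3 low broad libraries lay above the others, and hC4B/- replicate 3 lay within their range. In summed level the pseudogenes did not stand out, at 70.6 to 202 CPM in the broad libraries and 70.2 to 245 CPM in the others. The 505 member counts of hC4A/A replicate 2 and 866 of hC4B/- replicate 2 limit the precision, against 2219 in C4-/- replicate 3 and 3937 to 29300 in the 16 others.

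**Figure D3:**
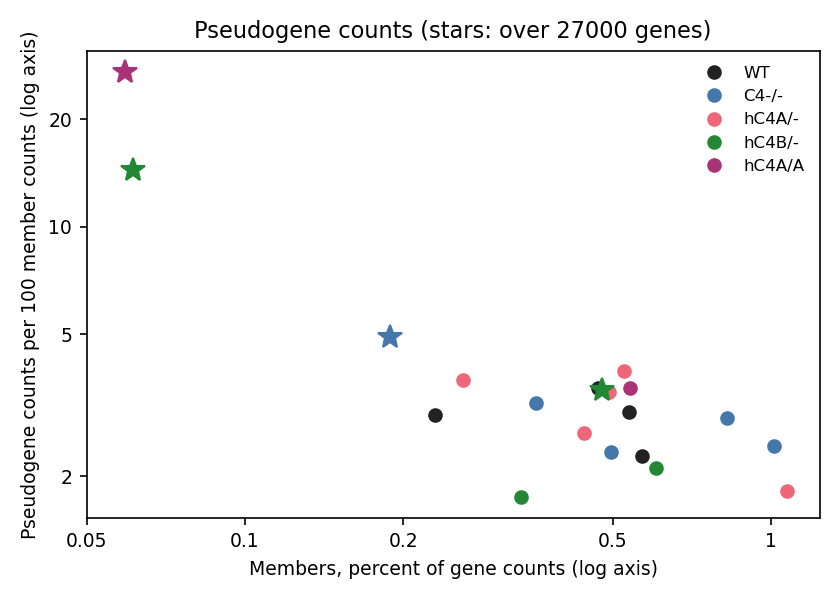
Counts on the 294 named pseudogenes per 100 member counts (vertical, log axis) against the members' share of gene counts (horizontal, percent, log axis), 1 point per library, coloured by genotype label, with stars for the broad libraries. The 2 libraries with the smallest shares, 0.0591% and 0.0611%, have 27.1 and 14.4 pseudogene counts per 100 member counts.

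hC4B/- replicate 3 had an ordinary total and an unlike composition. Rpl35a (ENSMUSG00000060636, chr16:33056453-33060189 in GRCm38), a large subunit protein whose human gene is mutated in some patients with Diamond-Blackfan anaemia, reached 249.6 CPM there, against at most 70.4 CPM in the 16 others and 16.2 CPM at most in the other broad libraries. Rpl35, which sits at the tunnel exit, was measured at 42.4 CPM (0.92 to 28.6 in the 16 others) and Rpl10 at 548 CPM (116 to 496). On the other side Rpl6 was at 50.5 CPM (202 to 816) and Rpl4, another large subunit protein, at 69.3 CPM (154 to 926). Eef1a1, the elongation factor that brings aminoacyl-tRNA to the ribosome and itself a terminal oligopyrimidine gene, was at 42.4 CPM there and at 293 to 1981 CPM in the 16 others.

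The genotype contrasts were fitted with edgeR's quasi-likelihood test over all 12680 genes and all 20 libraries. With 15 residual degrees of freedom, the genes' common dispersion came to 1.07. No ribosomal protein gene passed a Benjamini-Hochberg adjusted p of 0.05 in any of the 9 contrasts or in the test of any genotype, and none did under the 28 alternative settings, DESeq2 and limma voom among them. In the 9 contrasts 0.0% of all tested genes passed in the 20-library fit, and 0.118% in the test of any genotype. At an unadjusted p of 0.05, edgeR counted 0 to 3 of the 73 genes per contrast, DESeq2 0 to 5 and voom 0 to 1, and each contrast below gives its own count beside the share of all tested genes. Contrasts that share a group share its libraries, so they are not independent of each other.

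For C4-/- against WT the median log2 fold change of the members was 0.50, with 67 of 73 above 0, and 0.33 over all tested genes. Without the broad libraries the medians were 0.54 and 0.02. At an unadjusted p of 0.05, 1 member (Rpl24, higher) counted, where 8.53% of all tested genes had such a p in either direction. Leaving out C4-/- replicate 1 or replicate 5, the libraries with the highest totals of that label, brought the median to 0.13 or 0.14, and leaving out WT replicate 2, the lowest of its label, to 0.18. With Gm10800 left out of the scaling it was 0.28, below the 0.37 of all tested genes, and voom gave 0.21 (53 of 73 above 0) beside 0.32. The median of the 7 tested neutrophil markers was -3.83 in this contrast, and all 7 were lower at an unadjusted p of 0.05, with 0 past edgeR's adjusted threshold. Their part in the result was not tested.

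Rps12 was the 1 member whose libraries did not overlap between these labels. It was measured at 95.6, 60.98, 59.6, 60.5 and 154 CPM in C4-/- and at 47.9, 16.9, 56.1 and 59.0 CPM in WT. The lowest C4-/- library lay just above the highest WT library, and 0.891% of all tested genes were higher without overlap. The log2 fold change was 0.94 (SE 0.64), with an adjusted p of 0.67 by edgeR's quasi-likelihood test with Benjamini-Hochberg adjustment.

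Rps21, a small subunit protein, had the second smallest p of this contrast. It was measured at 50.7, 25.9, 14.3, 35.1 and 59.9 CPM in C4-/- and at 23.4, 14.1, 15.9 and 13.3 CPM in WT. The broad C4-/- replicate 3 lay among the WT libraries and the other 4 lay above them. By edgeR its log2 fold change was 1.15 (SE 0.76), with an adjusted p of 0.66 (Benjamini-Hochberg). Without the broad libraries Rps12, Rps21 and Rpl34 were higher without overlap, as were 1.5% of all tested genes.

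Rpl24, which forms a bridge between the subunits, had the smallest p in 4 contrasts and rests on few reads. Its counts were 0, 0, 0 and 1 in WT, 6, 0, 1, 22 and 0 in C4-/-, 0, 0, 3, 7 and 48 in hC4A/-, 0, 1, 0 and 0 in hC4B/-, and 15 and 2 in hC4A/A. Within C4-/- and hC4A/-, single libraries (22 of 29 and 48 of 58 counts) held most of them. Scaled to library size, the counts of C4-/- over WT had a ratio of 30.8 (95% exact interval 5.10 to 1257), those of hC4A/- over WT 50.3 (8.68 to 2021) and those of hC4A/A over WT 35.9 (5.62 to 1499), intervals that cover counting error only and not the spread between libraries. The edgeR test, which includes that spread, gave adjusted p of 0.56, 0.53 and 0.59 (Benjamini-Hochberg). The annotation shares much of this gene with Gm28037, as given above.

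For hC4A/- against WT the median over members was 0.44, with 66 of 73 above 0, and -0.05 over all tested genes. The hC4A/- label has no broad library, and without those of the other labels the medians were 0.43 and 0.01. Only Rpl24 had an unadjusted p under 0.05, beside 7.51% of all tested genes, and no member was free of overlap, where 0.607% of all tested genes were higher and 0.797% lower without overlap. Without hC4A/- replicate 5 the median was 0.12. The neutrophil markers had a median of -3.00 here, with 7 of 7 tested lower at an unadjusted p of 0.05 and 0 past edgeR's adjusted threshold, and their part was not tested. Rps7, a small subunit protein, had the next smallest p and was measured at 28.0, 22.8, 22.4, 34.7 and 88.5 CPM in hC4A/- and at 14.2, 7.74, 24.3 and 26.9 CPM in WT. Replicate 5 stood far above the rest and the other hC4A/- libraries overlapped with WT. The log2 fold change of Rps7 was 1.10 (SE 0.74; edgeR, Benjamini-Hochberg adjusted p = 0.87).

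For hC4B/- against WT the median over members was 0.15 with 45 of 73 above 0, and 0.18 over all tested genes. It was 0.41 without the broad libraries, where all tested genes had -0.20, 0.57 without hC4B/- replicate 2 alone and -0.08 without hC4B/- replicate 1. Rpl35a was the 1 member with an unadjusted p under 0.05, where 13.1% of all tested genes had one. It was measured at 39.7, 14.3, 249.6 and 28.2 CPM in hC4B/- and at 24.1, 8.44, 30.3 and 24.1 CPM in WT. One broad library was far above and the other lay among the WT libraries. Its fitted log2 fold change was 1.93 (SE 0.84; edgeR, Benjamini-Hochberg adjusted p = 0.36) and 0.83 without the broad libraries.

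Rpl35 was next, at 10.98, 1.19, 42.4 and 7.24 CPM in hC4B/- and 6.27, 1.41, 3.03 and 4.02 CPM in WT. The 2 broad libraries were the lowest and the highest of the 8. This gave a log2 fold change of 2.03 (SE 1.15; edgeR, Benjamini-Hochberg adjusted p = 0.42). Rpl27, a large subunit protein, was free of overlap and higher, as were 1.5% of all tested genes. Its levels were 26.2, 16.7, 41.7 and 17.4 CPM in hC4B/- and 15.2, 9.15, 14.4 and 16.5 CPM in WT, a gap of 16.5 to 16.7 between the nearest libraries. With the 2 hC4B/- libraries that are not broad, 7 members were higher without overlap (Rpl27, Rpl30, Rpl34, Rpl35, Rpl38, Rps7 and Rps27a), as were 4.2% of all tested genes.

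For hC4A/A against WT the median over members was -0.68 with 4 of 73 above 0, and 0.18 over all tested genes. With hC4A/A replicate 1 alone, which is the only one that is not broad, it was 0.05 over the other 19 libraries and 0.01 over the 16. All tested genes then had medians of -0.32 and -0.30. With replicate 2 alone the members' median was -2.21, beside 0.54 over all tested genes. At an unadjusted p of 0.05, 3 members counted (Rpl22 and Rpl24 higher, Rps2 lower), where 8.41% of all tested genes did. Rpl22, a large subunit protein also studied in lymphocyte development, was measured at 82.6 and 8.98 CPM in hC4A/A and at 19.1, 4.22, 10.6 and 6.43 CPM in WT. One hC4A/A library was the highest of all 20 and the other lay among the WT libraries. It had a log2 fold change of 2.18 (SE 1.00; edgeR, Benjamini-Hochberg adjusted p = 0.59), and -0.12 without hC4A/A replicate 1.

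Rps2, a small subunit protein near the messenger RNA entry, was low in both hC4A/A libraries. It was measured at 8.29 and 6.41 CPM in hC4A/A and at 60.1, 28.1, 53.8 and 17.3 CPM in WT. Both lay below every WT library, as did both values of Rpl8 (59.96 and 2.56 CPM against 71.1 to 111), where 3.79% of all tested genes were lower without overlap. Rpl24 was higher without overlap, as were 7.41% of all tested genes. With replicate 1 as the single hC4A/A library, 14 members were higher and 2 (Rpl8 and Rps2) lower than every WT library, beside 18.9% and 12.4% of all tested genes. The log2 fold change of Rps2 was -2.41 (SE 1.11; edgeR, Benjamini-Hochberg adjusted p = 0.59), and -2.27 without the broad libraries. Low values occurred in another label too, where Rps2 was at 4.55, 9.07 and 7.43 CPM in C4-/- replicates 1, 3 and 4, and 79.0% of its 50-base stretches occur in other genes.

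For hC4A/- against C4-/- the median over members was -0.05 with 32 of 73 above 0, and -0.32 over all tested genes. Without the broad libraries both were near 0, at -0.02 and 0.00. The members' median rested on single C4-/- libraries: it was 0.35 (60 of 73 above 0) without replicate 1, 0.34 (62 of 73) without replicate 5 and -0.24 (17 of 73) without replicate 2. With Gm10800 left out of the scaling it was 0.14 (50 of 73). No member had an unadjusted p under 0.05, where 10.7% of all tested genes had one, and no member was free of overlap, beside 0.213% of all tested genes higher and 0.82% lower without overlap. Rps24, another Diamond-Blackfan anaemia gene, had the smallest p and was measured at 177, 227, 140.0, 103 and 152 CPM in hC4A/- and at 117, 18.5, 24.6, 119 and 176 CPM in C4-/-. C4-/- replicates 2 and 3 were low and the other 3 lay within the hC4A/- range. By edgeR its log2 fold change was 0.81 (SE 0.68; edgeR, Benjamini-Hochberg adjusted p = 0.66). Rps2 followed with a log2 fold change of 0.71 (SE 0.71).

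For hC4B/- against C4-/- the median over members was -0.32 with 15 of 73 above 0, and -0.03 over all tested genes. It was -0.08 without the broad libraries, 0.30 without hC4B/- replicate 2, 0.13 without C4-/- replicate 5 and 0.06 under RLE scaling, DESeq2's size factors as edgeR computes them. No member had an unadjusted p under 0.05, beside 4.52% of all tested genes. Rpl24 had the smallest p, with 29 counts in C4-/- and 1 in hC4B/-, a scaled ratio of 22.6 (95% exact interval 3.75 to 924). Rpl4 came next at 232, 25.03, 69.3 and 347 CPM in hC4B/- and 926, 403, 35.0, 371 and 302 CPM in C4-/-. The 3 lowest values were those of the broad libraries. Its fitted log2 fold change was -1.27 (SE 0.82; edgeR, Benjamini-Hochberg adjusted p = 0.99).

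For hC4A/- against hC4B/- the median over members was 0.29 with 52 of 73 above 0, and -0.14 over all tested genes. It was 0.01 without the broad libraries, -0.12 without hC4A/- replicate 5, -0.14 without hC4B/- replicate 2 and -0.06 under RLE scaling. Rpl24 (58 counts against 1, a scaled ratio of 37.0 with a 95% exact interval of 6.38 to 1486) was the 1 member with an unadjusted p under 0.05, where 16.7% of all tested genes had one. Rpl35a was at 20.5, 23.9, 19.02, 23.1 and 65.9 CPM in hC4A/- and, as above, at 14.3 to 249.6 CPM in hC4B/-. This gave a log2 fold change of -1.44 (SE 0.77; edgeR, Benjamini-Hochberg adjusted p = 0.34), and -0.33 without the broad libraries.

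For hC4A/A against C4-/- and against hC4A/- the medians over members were -1.15 and -1.10, with 3 and 1 of 73 above 0, where all tested genes had -0.02 and 0.17. Without the broad libraries they were -0.47 and -0.39, beside -0.41 and -0.35 over all tested genes. With hC4A/A replicate 2 as the single library of its label they were -2.42 and -2.72, beside 0.40 and 0.48 over all tested genes. No member had an unadjusted p under 0.05 in either contrast, where 2.17% and 11.5% of all tested genes had one. Against hC4A/-, 7 members were lower without overlap (Rpl8, Rpl29, Rpl34, Rpl37, Rps2, Rps7 and Rps21), as were 2.7% of all tested genes, and the same 7 were lower when hC4A/A replicate 1 stood alone, where 8.23% of all tested genes were. Rpl22 was then higher than every hC4A/- library, as were 17.2% of all tested genes.

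Of these, Rps2 and Rps7 had the smallest p. Rps2 was at 27.3, 20.2, 15.6, 40.5 and 48.1 CPM in hC4A/- and at the 8.29 and 6.41 CPM given above in hC4A/A. Rps7 was at 13.1 and 8.98 CPM in hC4A/A, below the lowest hC4A/- library at 22.4 CPM. The edgeR log2 fold changes were -2.02 (SE 1.07; edgeR, Benjamini-Hochberg adjusted p = 0.47) and -1.82 (SE 1.01; edgeR, Benjamini-Hochberg adjusted p = 0.51). Against C4-/-, Rpl8 had the smallest p, with a log2 fold change of -2.16 (SE 1.15). Its C4-/- libraries ran from 23.1 CPM in replicate 2 to 472 CPM in replicate 5, so the hC4A/A value of 59.96 CPM in replicate 1 lay inside their range.

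**Figure D4:**
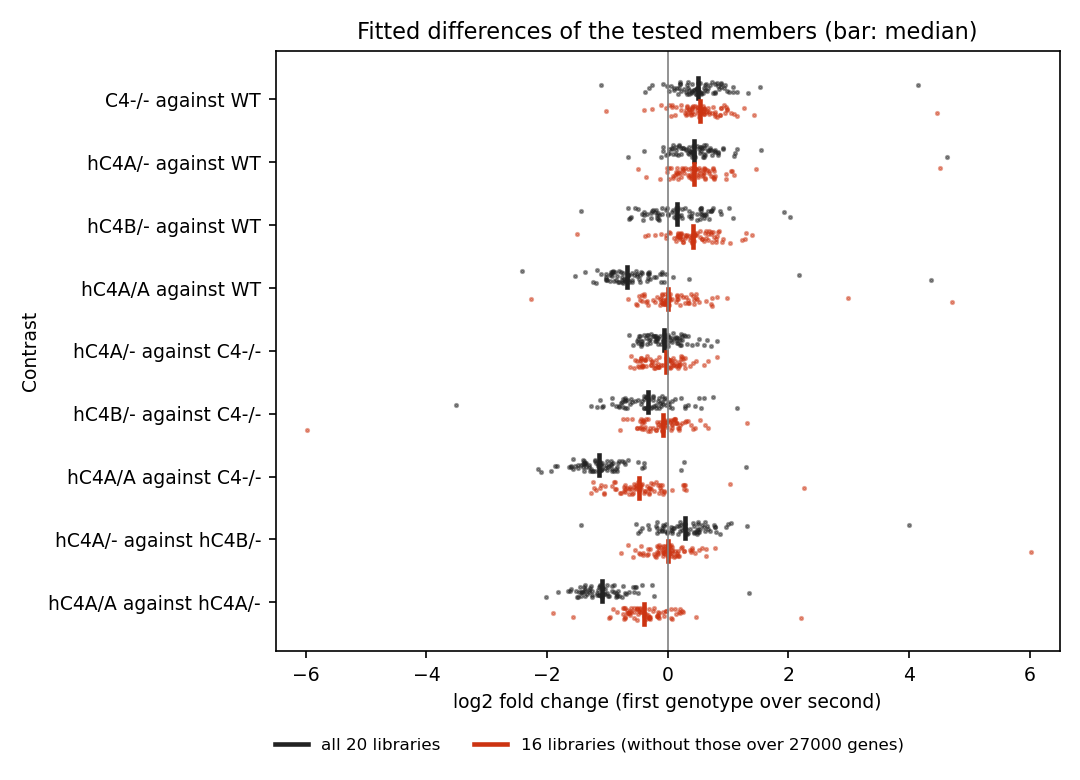
Fitted log2 fold change of each of the 73 tested members (points, spread vertically at random) in the 9 genotype contrasts, with the median as a bar, over all 20 libraries (black) and over the 16 that are not broad (red). The medians of hC4A/A against WT move from -0.68 to 0.01 between the sets, and the isolated points beyond 3 in either direction are Rpl24, whose fitted value depends on the prior count, apart from Rpl22 near 3 in the red points of hC4A/A against WT.

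Differences between the subunits were not tested, and the stalk has only 3 genes. The median log2 fold change was 0.53 for the 41 tested large subunit genes, 0.44 for the 29 tested small subunit genes and 0.34 for the 3 stalk genes in C4-/- against WT. In the same order it was 0.45, 0.44 and 0.03 in hC4A/- against WT, 0.15, 0.24 and -0.17 in hC4B/- against WT, and -0.65, -0.66 and -1.10 in hC4A/A against WT. In hC4A/- against C4-/- it was -0.12, 0.01 and -0.43. The stalk median was the lowest of the 3 in each of these 5 contrasts, most of which share the WT libraries. It was also the lowest in hC4A/A against C4-/- (-1.15, -1.10 and -1.19) and against hC4A/- (-1.10, -1.10 and -1.13). It was not the lowest in hC4B/- against C4-/- (-0.43, -0.24 and -0.36) or in hC4A/- against hC4B/- (0.31, 0.18 and 0.20). Among the stalk genes Rplp0 was measured at 91.4, 31.7, 76.6 and 87.2 CPM in WT and at 66.9, 79.6, 47.6, 66.5 and 183 CPM in hC4A/-. Rplp1 was at 108, 37.3, 94.0 and 62.7 CPM and at 56.6, 62.1, 57.1, 70.0 and 138 CPM in the same labels. WT replicate 2 was the lowest WT library and hC4A/- replicate 5 the highest hC4A/- library for both.

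Of the other genes named by rule, the X-linked Rpl36a, Rpl39 and Rps4x were measured at 5.63 to 14.4, 7.74 to 20.5 and 47.9 to 244 CPM in WT and at 6.82 to 35.3, 8.19 to 67.6 and 72.0 to 333 CPM in hC4A/-. Rpsa, a small subunit protein that also serves as a laminin receptor, was at 25.3 to 48.5 CPM in WT, 24.6 to 157 in C4-/-, 20.5 to 149 in hC4A/-, 16.7 to 67.1 in hC4B/-, and 37.0 and 20.5 in hC4A/A. Rps27a, which is made as a fusion with ubiquitin, was at 18.3 to 52.8 CPM in WT and 41.7 to 103 CPM in hC4B/-. Each of these genes overlapped between the labels given.

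The 9 members with under 25% shared 50-base stretches were read separately, chosen after the data were seen. A low share does not mean few copies in each of them. The transcripts used for Rps15a (6.1%) and Rps20 (7.6%) are 5130 and 3706 bases long and share stretches with 64 and 50 other genes. The summed level of the 9 was 117 to 629.8 CPM in the broad libraries and 618 to 1871 CPM in the others. Their medians were 0.61, 0.44, 0.14 and -0.34 in the 4 contrasts with WT (C4-/- first, then hC4A/-, then hC4B/- and last hC4A/A), beside 0.50, 0.44, 0.15 and -0.68 over the 73. Without the broad libraries they were 0.60, 0.43, 0.45 and 0.35, beside 0.54, 0.43, 0.41 and 0.01 over the 73.

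The other genes of the translation machinery were read in the same fits, and none of them passed the adjusted threshold in any contrast. Of 17 elongation factors and other terminal oligopyrimidine genes, all tested, 1 was higher and 1 lower at an unadjusted p of 0.05 in hC4A/- against WT, with a median of 0.14, where 7.51% of all tested genes had such a p. In C4-/-, hC4B/- and hC4A/A against WT 0 were higher and 1, 2 and 1 lower, beside 8.53%, 13.1% and 8.41% of all tested genes. In hC4A/A against hC4A/- their median was -0.83, beside -1.10 for the members, and -0.65 against -0.39 without the broad libraries. Their summed level was 333 to 668 CPM in the broad libraries and 813 to 2964 CPM in the others, so the 2 ranges did not overlap.

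Within that group Eef2, the translocase of elongation, went the other way in the broad libraries. It was measured at 155, 161, 176 and 97.5 CPM in C4-/- replicate 3, then replicates 2 and 3 of hC4B/-, then hC4A/A replicate 2, and at 13.6 to 96.7 CPM in the 16 others. All 4 thus lay above every other library, the last of them narrowly. The share of all tested genes that did so is not given here. The median difference over all tested genes was itself above 0 in these libraries, at +0.42, +0.52, +0.45 and +0.55 in the same order. Fau, Rack1 and Rps3a1, small subunit or ribosome-bound proteins whose symbols fall outside the rule, were at 6.41 to 34.3, 15.4 to 31.8 and 7.69 to 24.0 CPM in the 3 low broad libraries, against 24.0 to 259, 159 to 1211 and 78.8 to 374 CPM in the 16 others. In hC4B/- replicate 3 they were at 343, 229 and 61.2 CPM.

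The proteins of the mitochondrial ribosome, which translates only transcripts of the mitochondrial genome, were read beside them. Of 78 genes 72 were tested, with medians of 0.37, 0.26, -0.03 and -0.14 in those 4 contrasts with WT, and 2 lower and 0 higher at an unadjusted p of 0.05 in each, beside the 8.53%, 7.51%, 13.1% and 8.41% of all tested genes in these contrasts. Without the broad libraries the medians of these genes were 0.33, 0.30, -0.12 and -0.05. Their summed level was 362 to 807 CPM in the broad libraries and 450.3 to 1514 CPM in the others. Of 30 ribosome biogenesis factors 28 were tested, with medians of 0.34, 0.17, -0.03 and -0.33 in the same order. Without the broad libraries the medians of these factors were 0.31, 0.26, -0.18 and -0.45. Their summed level was 335 to 543 CPM in the broad libraries and 657 to 1765 CPM in the others, again without overlap. Of 14 regulators of terminal oligopyrimidine translation 13 were tested, with medians of 0.21, -0.32, 0.40 and 0.57. Without the broad libraries, where hC4A/A is a single library, the medians of these regulators were -0.02, -0.22, -0.14 and -1.80. The sign thus changed in C4-/-, hC4B/- and hC4A/A against WT. Larp1, which binds the oligopyrimidine tract, was at 48.6, 19.1, 19.5 and 43.6 CPM in the 4 broad libraries in the order given for Eef2, and at 0 to 40.4 CPM in the 16 others, a range that holds 2 of them.

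Of 13 paralogs and fusion genes 8 were tested, with medians of 0.06, 0.20, 0.36 and -0.69 in the same order. Without the broad libraries the medians were 0.22, 0.18, 0.44 and 0.04. Rpl22l1, the paralog of Rpl22, was at 0 to 13.1 CPM and Rps27l, the paralog of Rps27, at 1.41 to 16.9 CPM in the 16 libraries that are not broad. Tpt1, a terminal oligopyrimidine gene, was at 52.6 to 123 CPM in those libraries.

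Markers of other cells were read in the same libraries. The 9 neutrophil markers summed to 1410 CPM in WT replicate 2, the WT library with the lowest ribosomal protein total, and to 101 to 200 CPM in the other 3 WT libraries, with 0 to 146 CPM in the 12 further libraries that are not broad. The 7 astrocyte markers summed to 56.5 to 122 CPM in the broad libraries and 163 to 744 CPM in the others, and the 7 oligodendrocyte markers to 36.3 to 77.5 and 102 to 358 CPM. Other lists were not lower in the broad libraries. In the same order, neuron markers summed to 16.8 to 57.2 and 2.65 to 115 CPM, and endothelial and mural markers to 23.6 to 65.4 and 3.19 to 66.0 CPM. Sums of lymphocyte, border macrophage and monocyte markers overlapped too, at 10.8 to 21.8 and 0.68 to 33.6, 18.1 to 41.0 and 4.25 to 98.4, and 9.07 to 38.5 and 0 to 52.4 CPM. None of these genes was at 0 in every library. The part of other cells in the ribosomal protein levels was not tested.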

How the data were processed

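Members and gene lists were chosen with earlier results of these data known. The deposited values are raw counts of reads per gene, as the authors made them. STAR, edgeR and the build GRCm38 are named, per the submitters' processing notes. The release of the annotation was not given in the sources used here. Counts from the column that ignores strand were used. The 4 summary lines stayed out of library sizes: per library, unmapped reads took 14.8% to 42.1% of reads, multimapping 13.2% to 28.9%, featureless 21.8% to 42.1% and ambiguous 0.897% to 5.86%.

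Symbols came from GENCODE annotation of GRCm38 (54809 of 54838 genes matched). Genes were filtered with filterByExpr, scaled by TMM and fitted with edgeR 4.0.16 (robust quasi-likelihood, 5 labels in 1 model, all 20 libraries; R 4.3.3), with Benjamini-Hochberg adjustment over 12680 genes. CPM values are counts scaled to library size after TMM. DESeq2 1.42.0, limma voom (3.58.1), other scalings, no filter, a replicate block, the 16 libraries with at most 27000 genes and leaving out each library were alternatives. The fitting script was tested on simulated counts. Intervals of count ratios are exact binomial (95%) and cover counting error only. Named genes were a fixed set (the stalk and X-linked members, Rpsa and Rps27a). To these were added the 2 members of smallest p per contrast, and the highest, lowest, most and least variable members. The uncertain members were named in this way, Rpl24 and Rpl35 by p and Rpl23a, Rpl13a and Rps10 by low level. Other genes were named after their values were seen, where a count is small. Some genes are not reported by name here.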

Additional observations from a re-analysis of the deposited data

Results flagged for a closer look

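Of 128 sets of values (a gene or summed quantity within a label of 4 or 5 libraries), 21 held a library whose gap to its nearest neighbour was large for the range of the set by Dixon's criterion, where chance gives about 1 in 20. The sets share libraries and are not independent. No explanation was tested.

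Most of the flagged sets pointed at the same library, hC4A/- replicate 5, which was high. Its summed ribosomal protein level was 9857 CPM, against 3186 to 4827 CPM in the other 4 libraries of its label. It was also apart for Rpl8 (159 CPM), Rpl12 (159.8), Rpl22 (42.4), Rpl24 (16.1), Rpl35 (28.6), Rpl35a (65.9), Rpl39 (67.6) and the stalk genes Rplp0 (183) and Rplp1 (138). Among small subunit genes it was apart for Rps4x (333 CPM), Rps7 (88.5), Rps12 (135) and Rps27a (149). This library has the most gene counts of the series, 2735181, and 70 of the 73 tested members were higher in it than in the other 4 libraries of its label.

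In WT, replicate 3 was apart for Rpl6 (816 CPM, others 225 to 246) and Rpl10 (402 CPM, others 125 to 151), and replicate 4 for Rpl24 at 0.40 CPM, which is 1 count. In C4-/-, replicate 5 was apart for Rpl8 at 472 CPM, where the others ran from 23.1 to 129.8 CPM. In hC4B/-, replicate 2 was apart for its 14.4 pseudogene counts per 100 member counts and for Rpl24 at 1.19 CPM, again 1 count, and replicate 3 for Rpl35a at 249.6 CPM.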

How the results depend on the processing

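No member was called under any of the 28 alternatives, so no call changed. Medians of hC4A/A contrasts depended on which of its 2 libraries was kept: over fits leaving out 1 library the median ran from -2.21 to 0.047 against WT, from -2.42 to -0.44 against C4-/- and from -2.72 to -0.38 against hC4A/-, the lowest without hC4A/A replicate 1. The lone library is then assumed to vary like the other labels. Rpl22 in hC4A/A against WT reversed to -0.12 without that replicate, and over those fits it ran up to 3.06. The members' share in hC4B/- was 0.616% of gene counts once the repeat-rich Gm10800 (9.61% to 65.9% of gene counts) was left out. Replicate numbers showed no clear pairing of the samples. Over 33 same-number pairs the correlation of deviations ran from -0.30 to 0.70 (median 0.01), and over 124 other pairs from -0.71 to 0.71 (median -0.001). Of 20 libraries, 6 were closest to their own number. Such correlations cannot exclude shared litters or handling, which the labels do not give. With the replicate block the medians were 0.08, 0.15, 0.12 and -0.87 in the 4 contrasts with WT, in the order of the report, with 0 members called. RLE scaling gave 0.50 for hC4B/- against WT. DESeq2 called 2 to 53 genes against WT per contrast and the unfiltered edgeR fit 3 to 65, none of them a member, where edgeR called 0. Of the values recomputed, 572 over the members or labels and 495 of single genes stayed within the spread, or on their side of the threshold. Staying within the spread does not fix a sign: 33 of the 252 recomputed contrast medians had the other sign. Over the 28 alternatives it ran from -0.08 to 0.57 for hC4B/- against WT, from -0.24 to 0.35 for hC4A/- against C4-/- (17 of 28 with the other sign), from -0.49 to 0.30 for hC4B/- against C4-/- and from -0.14 to 0.64 for hC4A/- against hC4B/-. The causes were not tested. Low member counts in hC4A/A replicate 2 and hC4B/- replicate 2 limit what their single genes can show.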
